A study of Homo sapiens with 9 samples.

Results

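Knockdown of YAP and TAZ was examined in MCF10A cells on plastic, an established, non-tumorigenic human mammary epithelial line, here carrying the empty pBABEpuro retroviral vector. The comparison took 4 of the 9 samples of the study. These were 2 libraries of control siRNA cells (A and B) and 2 libraries of cells transfected with YAP/TAZ siRNA, 1 for each of the reagents numbered 1 and 3. All 4 shared the vector, the rigid culture plastic and a medium with horse serum, insulin, EGF, hydrocortisone and cholera toxin. Cells were transfected with Lipofectamine RNAi-MAX, replated after 24 h and harvested 24 h later. The other 5 samples were cells of the same vector on a polyacrylamide hydrogel of 0.5 kPa, and cells transduced with HER2-CA V659E, an activated form of the receptor tyrosine kinase HER2. Of those HER2 cells, 1 library had control siRNA on plastic, 1 had control siRNA on the hydrogel, and 2 had YAP/TAZ siRNA 1 and siRNA 3 on plastic. The question addressed was which transcripts of cells on a stiff support depend on YAP and TAZ.

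YAP, encoded by YAP1, and TAZ, encoded by WWTR1, are paralogous transcriptional co-activators. They do not bind DNA themselves and reach promoters and enhancers mainly through the TEAD factors. The LATS kinases of the Hippo pathway phosphorylate them and keep them in the cytoplasm, while spreading on a stiff support and tension in the actin cytoskeleton favour their entry into the nucleus. In epithelial cells they are known for driving CTGF, CYR61 and ANKRD1 and for promoting proliferation.

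Values are counts scaled to library size with TMM factors (CPM), which compare 1 gene across libraries and not genes with each other. Values in the 4 libraries are given in the order control A, control B, siRNA 1, siRNA 3. The log2 fold change with its standard error and the adjusted p come from the edgeR quasi-likelihood test over 16117 genes. A gene is said to have fallen or risen where adjusted p was under 0.05 and each siRNA library differed at least 1.5-fold from the control mean in that direction. By this rule 2666 genes moved with both siRNAs, which is 16.5% of the genes tested. They comprised 1438 that fell (8.92%) and 1228 that rose (7.62%). Without the fold requirement 4139 genes passed the test (25.7%), and 1473 of these were under 1.5-fold or opposite with 1 of the siRNAs. Just inside the fold threshold lay MRGBP, whose smaller ratio was 1.5002, and just outside it EIF4A3, at 1.4996.

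The model holds 1 term for the difference between siRNA 3 and siRNA 1, shared by both lines, and therefore treats the reagents as different agents and not as repeats. With that term left out, so that the reagents count as replicates, 0 of 16117 genes passed in edgeR, the smallest adjusted p being 0.0554. In that fit 3473 genes had an unadjusted p under 0.05, among them 2423 of the 2666. With DESeq2 on the same groups 2317 genes passed the test, with no fold requirement. A fit of the 4 libraries alone called 1613 genes with both siRNAs, 986 lower and 627 higher, and 1474 of these were among the 2666. It did not call all genes named below. Examples that met the rule but were not called in this fit are HK2, SLC7A5, IVL, ITGA5, TNFSF10, TNC, SQSTM1, MMP9, MMP1 and DKK1. Their adjusted p there ran from 0.0507 (DKK1) to 0.277 (SLC7A5). The count in the main fit depended on having both controls. A fit without control A or B holds 1 control library and 1 residual degree of freedom, against 2 in the main fit. Whether its fewer calls come from that or from the values of the control left out was not tested. Leaving out control A gave 540 calls, and leaving out control B gave 510. Of the 2666 genes, 483 were called in both of those fits, 342 lower and 141 higher. The counts without each control are given beside each gene group. A list's share of calls is to be read against 8.92% lower and 7.62% higher over all genes, and no test of a list was made.

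The 4 libraries held between 50073588 and 78945981 counts, so that 3 counts correspond to 0.0371 to 0.0586 CPM. Across genes, log2 CPM correlated at r = 0.994 between the controls and at r = 0.950 between siRNA 1 and siRNA 3. The log2 ratios of siRNA 1 and of siRNA 3 to the control mean correlated at r = 0.534 across genes, which share the control values and are not independent replicates. At least 1.5-fold changes in opposite directions were found for 1013 genes, 738 of them higher with siRNA 1. Epithelial markers were abundant in every library, with KRT5 at 2291, 2311, 4651 and 659 CPM. The leukocyte gene CD3E and the adipocyte genes ADIPOQ and LEP had 0 counts in all 4 libraries. The summed level of 7 fibroblast markers was 6.02, 6.34, 107 and 28.0 CPM. Of these, DCN was at 2.77, 2.78, 90.4 and 9.71 CPM and COL1A1 at 2.40, 2.83, 11.9 and 15.8 CPM, while COL3A1 had 0 counts with either siRNA. The sums were 20.5, 18.3, 50.1 and 29.7 CPM for 6 leukocyte markers and 4.28, 3.96, 14.9 and 4.85 CPM for 5 endothelial markers. Nearly all of the leukocyte sum was CD14, at 7.41, 6.44, 25.1 and 8.67 CPM, and CD68, at 13.0, 11.8, 24.7 and 21.0 CPM. The 4 adipocyte markers summed to 7.94, 6.91, 78.8 and 0.692 CPM, nearly all of it FABP4. The part of these genes in the results was not tested. In bulk RNA, fewer cells of a kind and less RNA per cell cannot be told apart.

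**Figure D1:**
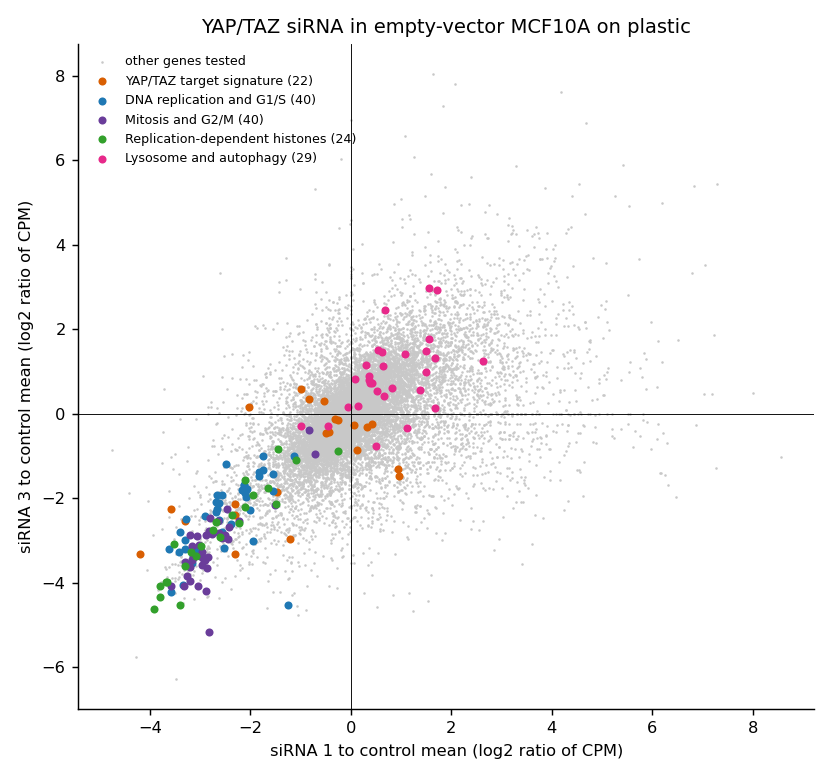
Each point is 1 gene, placed by the log2 ratio of its CPM with siRNA 1 (x axis) and with siRNA 3 (y axis) to the mean of the 2 control libraries; coloured points are members of 5 gene lists and grey points the other genes tested. Replication, mitosis and histone genes lie in the lower left quadrant, below the controls with both siRNAs, and grey points spread into all 4 quadrants.

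Both targeted transcripts fell with each reagent. YAP1 stood at 83.9, 85.1, 14.3 and 14.3 CPM, which left 16.9% of the control mean with either siRNA. Its log2 fold change was -2.55 ± 0.25 (adjusted p = 0.0072). WWTR1 stood at 77.4, 76.9, 14 and 21.6 CPM, with 18.2% left by siRNA 1 and 28% by siRNA 3 (-2.15 ± 0.11, adjusted p = 0.00541). For both genes the siRNA libraries lay far below both controls. Both genes also passed without control A or control B.

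Among the DNA-binding partners, TEAD4 fell. It stood at 20.1, 17.4, 7.13 and 5.27 CPM (-1.61 ± 0.18, adjusted p = 0.00877, and 0.0849 and 0.0599 without control A and B). TEAD1 was at 110.1, 106, 102 and 46.1 CPM (adjusted p = 0.0703) and TEAD3 at 10.6, 10.04, 20.8 and 15.5 CPM (adjusted p = 0.126), neither past the test. TEAD2 passed the test at 19, 19.4, 24.5 and 63.2 CPM, but its value with siRNA 1 was less than 1.5-fold above the control mean. VGLL4, which competes with YAP for the TEADs, rose from 62.3 and 63 to 103 and 209.7 CPM (1.23 ± 0.11, adjusted p = 0.0068, and 0.0568 and 0.0569 without control A and B). VGLL3 was at 197, 186, 247 and 112 CPM, on opposite sides of the controls with the 2 reagents, and VGLL1 was at or below 0.332 CPM throughout.

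Of the 22 genes of a published YAP/TAZ target signature, all tested, 8 fell and 0 rose, against 8.92% and 7.62% of all genes. All 8 also fell when either control was left out, and 7 of them fell in the fit of the 4 libraries alone. The median log2 fold change of the 22 was -0.39, against 0.02 over all genes tested. The promoters of CTGF and ANKRD1, the best known targets, were chosen with their motif matches known and are shown from RefSeq (GRCh38.p14), from 250 bases before to 50 after the start. They lie at chr6:131951323-131951622 and chr10:90921038-90921337, both on the minus strand. Capitals mark GGAATG, a core of the TEAD site, searched on both strands; it contains none of the other motifs searched here.
CTGF: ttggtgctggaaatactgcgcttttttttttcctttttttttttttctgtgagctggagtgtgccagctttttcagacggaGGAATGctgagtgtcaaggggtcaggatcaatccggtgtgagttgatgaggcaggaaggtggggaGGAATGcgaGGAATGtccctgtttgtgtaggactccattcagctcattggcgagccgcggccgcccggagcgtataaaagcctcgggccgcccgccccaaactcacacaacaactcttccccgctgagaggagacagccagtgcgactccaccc
ANKRD1: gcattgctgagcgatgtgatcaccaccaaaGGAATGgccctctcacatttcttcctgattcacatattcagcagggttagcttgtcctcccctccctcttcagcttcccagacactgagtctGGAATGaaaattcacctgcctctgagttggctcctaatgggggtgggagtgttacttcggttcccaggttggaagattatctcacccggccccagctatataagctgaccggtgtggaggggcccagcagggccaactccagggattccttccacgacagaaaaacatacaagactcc
The CTGF window holds 3 matches and the ANKRD1 window 2. At least 1 match occurred in 11.1% of the promoters found for 12199 of the 16117 genes. Of the 22 target genes 16 had a promoter in the table, too few of the list to set a share of it beside that of all promoters. Among the 8 genes that fell, TGFB2 had 1 match, AMOTL2, F3 and FJX1 had 0, and CYR61 and CRIM1 had no entry. Among the 14 others, NUAK2 had 2 matches and LATS2, FOXF2 and PTPN14 had 1 each, while MYOF, AXL, IGFBP3, CCDC80, NT5E and RBMS3 had 0. Matches thus occurred both in targets that fell and in targets that did not meet the rule.

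CTGF, now named CCN2, encodes a secreted matricellular protein and stood at 44.4, 43.9, 3.67 and 9.28 CPM (-2.92 ± 0.16, adjusted p = 0.00541). CYR61, its relative now named CCN1, stood at 156, 169, 16.5 and 27.9 CPM (-2.92 ± 0.12, adjusted p = 0.00523). ANKRD1, a nuclear ankyrin repeat protein, had the largest fall of the 22, from 25.7 and 28.1 to 1.43 and 2.67 CPM (-3.77 ± 0.56, adjusted p = 0.0137). In each of the 3 genes the controls agreed closely and both siRNA libraries lay well below them, siRNA 1 lowest. FJX1, a secreted relative of the fly growth regulator four-jointed, stood at 48.7, 45.5, 9.51 and 4.71 CPM (-2.81 ± 0.20). AMOTL2, an angiomotin that holds YAP at junctions, stood at 122, 114, 23.9 and 22.2 CPM (-2.35 ± 0.16). TGFB2, a TGF-beta ligand, stood at 33.7, 36.5, 7.05 and 7.89 CPM (-2.23 ± 0.17). AMOTL2 and TGFB2 fell to a similar degree with either reagent. FJX1 fell further with siRNA 3, to 9.99% of the control mean against 20.2% with siRNA 1. F3, the tissue factor that starts coagulation, stood at 912, 933, 331 and 254 CPM (-1.67 ± 0.11). CRIM1, a membrane protein that binds BMPs, stood at 256, 260.3, 112 and 33 CPM (-2.08 ± 0.15). It was the gene of the 8 not called in the fit of the 4 libraries alone.

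The other 14 targets did not meet the rule. AXL, a receptor tyrosine kinase, was at 95.1, 91.2, 22.9 and 105 CPM and so below the controls with siRNA 1 only. ASAP1 passed the test (adjusted p = 0.0352) at 52.1, 53.2, 37.4 and 38.1 CPM, less than 1.5-fold lower with either reagent. LATS2, a Hippo kinase, was at 41.4, 42.7, 23.5 and 53.2 CPM, and NT5E, the ectonucleotidase CD73, at 527, 541, 267 and 797 CPM. Both lay below the controls with siRNA 1 and above them with siRNA 3. CCDC80 (105, 106, 203 and 42.7 CPM) and IGFBP3 (24.7, 25.1, 48.5 and 8.89 CPM) showed the opposite, higher with siRNA 1 and lower with siRNA 3. MYOF, PTPN14, DOCK5, RBMS3, GADD45A, FOXF2, NUAK2 and ARHGEF17 had log2 fold changes from -0.43 to 0.09 with adjusted p of 0.0607 or more.

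**Figure D2:**
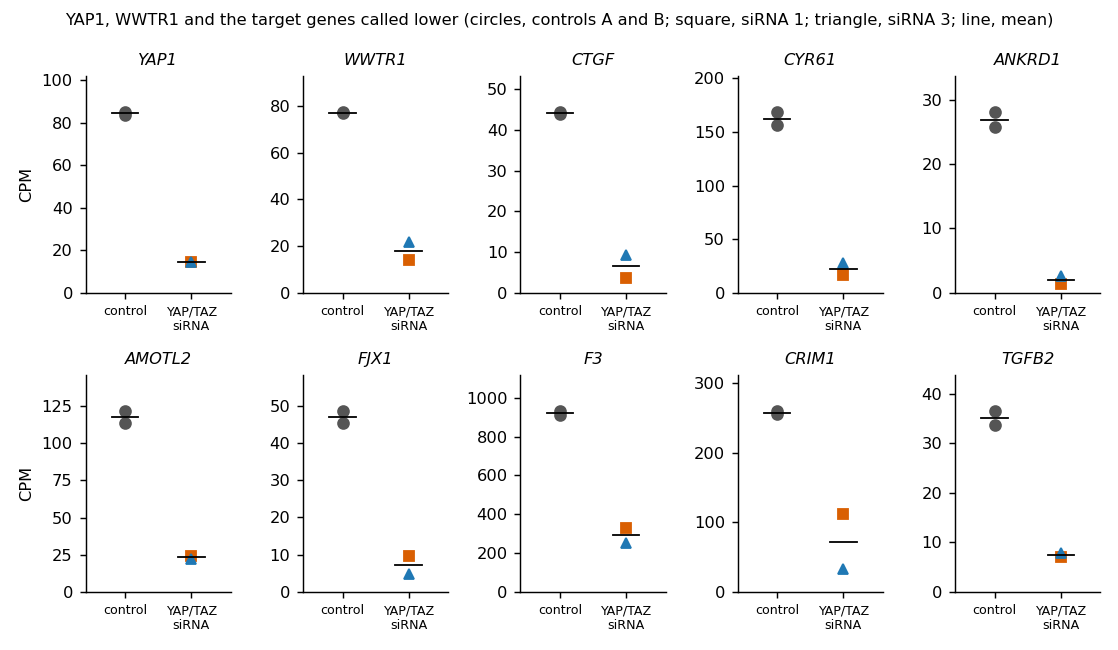
CPM (y axis, from 0, a scale for each gene) of YAP1, WWTR1 and the 8 target genes that fell; circles are controls A and B, the square siRNA 1, the triangle siRNA 3, and lines group means. In all 10 genes both siRNA values lie below both controls, and CRIM1 shows the widest gap between reagents (112 and 33 CPM).

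Few regulators upstream of YAP and TAZ met the rule. Of 23 Hippo kinases and regulators tested, 4 fell and 0 rose (17.4% against 8.92% of all genes), and 1 (AMOTL2) fell also without control A or without control B. AJUBA, a LIM protein that restrains the LATS kinases, stood at 114, 112, 43.9 and 27 CPM (-1.70 ± 0.23, adjusted p = 0.0121). NF2, which encodes merlin, an activator of LATS, stood at 335, 331, 143 and 174 CPM (-1.07 ± 0.14, adjusted p = 0.0116). WWC1, the scaffold KIBRA, stood at 110.0, 113, 68.4 and 39.6 CPM (-1.10 ± 0.13, adjusted p = 0.00933). In each, both siRNA libraries lay below both controls.

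Genes of the cell cycle fell nearly as whole lists. All 40 DNA replication and G1/S genes fell, as did 39 of 40 mitosis and G2/M genes and 23 of 24 replication-dependent histones, and 0 rose in any of the 3 lists. The exceptions passed the test but were less than 1.5-fold lower with 1 reagent, BUB3 with siRNA 3 and HIST1H2BD with siRNA 1. Median log2 fold changes were -2.42 for replication, -3.10 for mitosis and -2.70 for histones. The reagents gave similar medians, -2.57 and -2.30 for replication with siRNA 1 and siRNA 3, -2.91 and -3.32 for mitosis, and -2.71 and -2.84 for histones. All 104 members lay below both controls in both siRNA libraries, against 30.8% of all genes. The fit of the 4 libraries alone called 37 replication, 38 mitosis and 22 histone genes lower. Replication genes called numbered 24 without control A and 23 without control B. For mitosis it was 38 in either case, and for histones 20.

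Promoters of CDC6, which loads the replicative helicase, and of ESPL1, the protease separase that splits sister chromatids, are shown as examples of the first 2 lists, each a called member chosen because its promoter holds the motifs. They lie at chr17:40287629-40287928 and chr12:53268049-53268348 (RefSeq, GRCh38.p14, plus strand). Capitals mark an E2F site in CDC6, and in ESPL1 the CCAAT box, read on the opposite strand, and the CHR (cell cycle genes homology region).
CDC6: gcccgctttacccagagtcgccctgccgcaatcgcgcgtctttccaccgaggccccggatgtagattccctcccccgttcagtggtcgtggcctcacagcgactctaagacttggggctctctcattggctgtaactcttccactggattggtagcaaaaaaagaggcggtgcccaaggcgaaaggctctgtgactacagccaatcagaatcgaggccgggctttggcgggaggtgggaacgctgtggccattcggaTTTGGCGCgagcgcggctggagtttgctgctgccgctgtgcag
ESPL1: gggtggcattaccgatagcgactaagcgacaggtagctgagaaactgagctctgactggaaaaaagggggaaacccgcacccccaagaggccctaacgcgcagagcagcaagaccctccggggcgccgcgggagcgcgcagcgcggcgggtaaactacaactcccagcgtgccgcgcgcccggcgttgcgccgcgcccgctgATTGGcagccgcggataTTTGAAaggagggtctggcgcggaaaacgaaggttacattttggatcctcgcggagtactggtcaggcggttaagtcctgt
TTTCCCGC or TTTGGCGC, the forms of the E2F site searched on both strands, occurred in 18 of the 34 replication promoters in the table (52.9%), against 3.46% of promoters of all genes tested. TTTGAA, the CHR element, occurred in 23 of 34 mitosis promoters (67.6%), against 10.5%. CCAAT occurred in 26 of 34 mitosis promoters (76.5%), 19 of 21 histone promoters (90.5%) and 19 of 34 replication promoters (55.9%), against 36.5%. It was not particular to lists that fell nearly whole. Among lists treated below its share was 66.7% for sterol and fatty acid synthesis, 55.0% for p53 targets and CDK inhibitors, and 28.0% for NF-kB, chemokine and cytokine genes. No motif contains another. These are matches of letters, given as a description.

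Of the 12 genes with the largest falls by the smaller of the 2 siRNA ratios, 5 were core histones and 1 a linker histone. HIST1H3G, a histone H3 gene, stood at 209, 176, 12.7 and 7.71 CPM (-4.23 ± 0.44, adjusted p = 0.00784). HIST1H1B, the linker histone, stood at 489, 494, 39 and 31 CPM (-3.76 ± 0.45). Also among them were HIST1H3F, HIST1H2AB, HIST1H3B and HIST1H2BO. Histone genes have near-identical copies, and how reads that fit several were counted is not given in the sources used here, so the share of each copy is uncertain. LMNB1, lamin B1 of the nuclear envelope, stood at 267, 267, 21.6 and 17.5 CPM (-3.76 ± 0.25, adjusted p = 0.00541). MCM10, a replication initiation factor, stood at 103, 111, 8.87 and 5.69 CPM (-3.89 ± 0.29, adjusted p = 0.00631). SKA1, which couples kinetochores to microtubules, stood at 58.5, 59.1, 4.51 and 4.71 CPM (-3.63 ± 0.37). In SKA1 7.67% and 8% of the control level were left with siRNA 1 and siRNA 3. CDCA3 (a trigger of mitotic entry), ESPL1 and TROAP (a spindle protein) complete the 12, at -3.69, -3.82 and -3.86. All 12 were called also with either control left out and in the fit of the 4 libraries.

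RRM2, the ribonucleotide reductase subunit that supplies deoxynucleotides, stood at 368, 399, 37.6 and 23 CPM (-3.67 ± 0.32). CDC45, a helicase subunit, stood at 73.8, 78.5, 7.03 and 7.78 CPM (-3.31 ± 0.38) and CDC6 at 135, 140.3, 11.2 and 14.9 CPM (-3.35 ± 0.41). Among mitosis genes, the kinesin KIF2C stood at 119, 119.7, 11.9 and 7.08 CPM (-3.68 ± 0.26) and the kinase AURKB at 49.6, 46.1, 4.92 and 3.32 CPM (-3.54 ± 0.31). In all 5 both siRNA libraries lay far below both controls. CCND1, cyclin D1, stood at 522, 516, 276 and 266 CPM (-0.93 ± 0.15, adjusted p = 0.0156), a smaller fall. It was not called without control A or control B (adjusted p = 0.128 and 0.127).

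Ribosome biogenesis genes fell too. Of 26 tested, 23 fell (88.5%) and 0 rose, with a median of -1.26. The count was 9 without control A, 8 without control B and 11 in the fit of the 4 libraries. TCOF1, a factor for ribosomal RNA transcription, stood at 238, 236, 50.9 and 48.6 CPM (-2.23 ± 0.26, adjusted p = 0.00933). NOP56, a core protein of box C/D snoRNPs, stood at 352, 365, 152 and 92.8 CPM (-1.59 ± 0.17, adjusted p = 0.00821), and RRP12, an assembly factor, at 83.4, 81.9, 35.3 and 25.8 CPM (-1.45 ± 0.13). In all 26 both siRNA libraries lay below both controls. Of 38 cytosolic ribosomal protein genes 1 fell (2.63%) and 0 rose, with a median of 0.03, while 1 passed the test itself as lower and 3 as higher. The 1 that fell was RPL7, listed here at only 2.92, 2.48, 1.11 and 0.358 CPM. How multiply mapping reads were counted is not given in the sources used here, so that level is uncertain. Of 28 nuclear-encoded respiratory chain subunits 0 fell and 0 rose with both reagents, while 5 passed the test itself, 1 lower and 4 higher (median -0.01).

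In 3 lists of metabolism most genes did not meet the rule. Of 26 genes of amino acid supply and the ATF4 and unfolded protein responses, 6 fell (23.1%) and 2 rose (7.69%, near the background). With either control left out 2 fell and 0 rose. SHMT2, which makes mitochondrial one-carbon units, stood at 215, 203, 76.1 and 63.2 CPM (-1.58 ± 0.16, adjusted p = 0.00772). SLC7A5, a leucine transporter, stood at 737, 716, 443 and 74.8 CPM (-1.99 ± 0.14, adjusted p = 0.00584), much lower with siRNA 3. It was not called in the fit of the 4 libraries alone (adjusted p = 0.277). The 2 that rose were DDIT3, the stress factor CHOP, and HERPUD1, at 1.52 ± 0.19 and 0.75 ± 0.11. Of 30 sterol and fatty acid synthesis genes 6 fell (20%) and 0 rose, and 0 fell without control A or control B, with a median of -0.56. The fit of the 4 libraries alone called 6 of the 30 lower. FDPS, of the mevalonate pathway, stood at 528, 536, 270.4 and 289 CPM (-0.93 ± 0.12) and DHCR7, of the last step of cholesterol synthesis, at 123, 117, 70.04 and 52.5 CPM (-0.99 ± 0.11). Of 29 glycolysis and hypoxia genes 3 fell, HK2 (-1.93 ± 0.18), ENO1 (-0.83 ± 0.09) and PFKP (-0.63 ± 0.10), and 0 rose. The share that fell, 10.3%, is near the background of 8.92%. HK2 was not called in the fit of the 4 libraries alone (adjusted p = 0.148). HK2, hexokinase 2, stood at 62.4, 66.9, 31.8 and 8.96 CPM and was the 1 called without control A or control B.

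**Figure D3:**
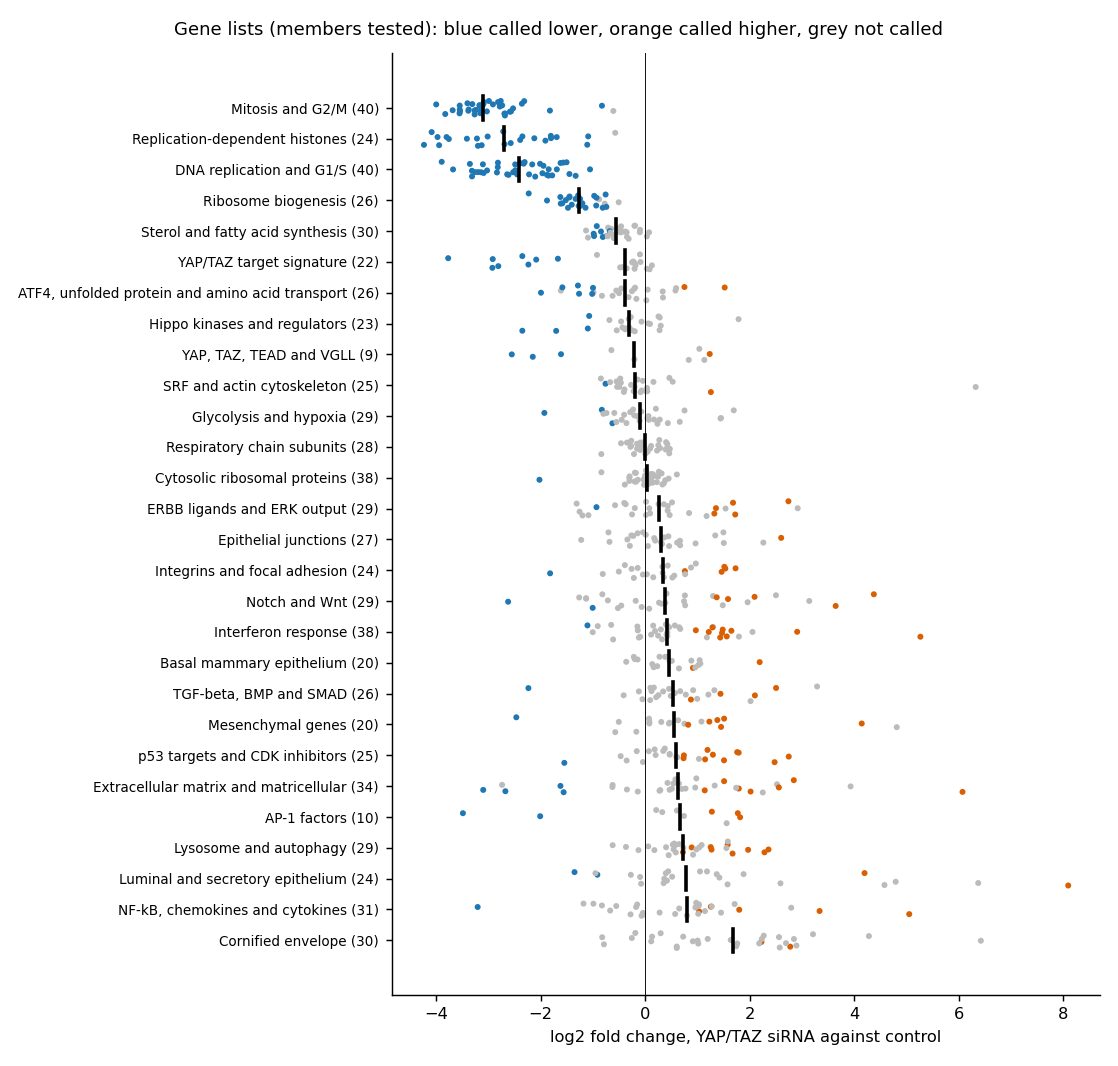
Log2 fold change of every tested member (points) of the 28 gene lists, ordered by median (black bars), in empty-vector cells on plastic; blue points fell and orange points rose by the rule of both siRNAs, and grey points did not meet it. Replication, mitosis and histone lists are blue nearly throughout, and 23 of the 26 ribosome biogenesis genes are blue.

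Genes that rose were spread over many functions. Of the 12 with the largest rise by the smaller siRNA ratio, AKR1C1 and AKR1C2 encode aldo-keto reductases. AKR1C1 stood at 5.11, 4.93, 61.8 and 93.7 CPM (3.92 ± 0.12, adjusted p = 0.00293) and AKR1C2 at 16.5, 15.9, 348 and 183 CPM (3.96 ± 0.16, adjusted p = 0.00523). Their sequences are close, so reads may be shared between them, and their separate levels are uncertain. BMF, a BH3-only protein of the BCL2 family that promotes apoptosis, stood at 1.51, 1.37, 56.3 and 52.6 CPM (5.35 ± 0.69, adjusted p = 0.0108). FBXO32, the ubiquitin ligase subunit atrogin-1, stood at 26, 26.2, 354 and 333 CPM (3.88 ± 0.71, adjusted p = 0.0212). GPNMB, a transmembrane glycoprotein of lysosomes and melanosomes, went from 1 and 0.436 to 108 and 30.3 CPM (6.64 ± 1.25, adjusted p = 0.0222). BMF and FBXO32 reached nearly the same level with both reagents, while GPNMB was higher with siRNA 1. CLEC2B, a C-type lectin, stood at 3.16, 3.52, 42 and 51.9 CPM (3.81 ± 0.23, adjusted p = 0.00541), and IQGAP2, a scaffold of the actin cytoskeleton, at 3.26, 4.47, 45 and 41 CPM (3.48 ± 0.25, adjusted p = 0.00589). RNF128, a ubiquitin ligase, stood at 2.34, 2.18, 34.5 and 44.9 CPM (4.15 ± 0.42). The remaining 4 were CHRNA9 (a nicotinic receptor subunit), SYT12 (a synaptotagmin), STRA6 (the receptor for retinol-binding protein) and BHLHE41 (a transcriptional repressor of the clock), at 3.34 to 5.52. All 12 were called in the fit of the 4 libraries. Without control A, CHRNA9 and FBXO32 were not called, and without control B neither were these nor GPNMB.

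Some lysosome and autophagy genes rose. Of 29 tested, 9 rose (31%) and 0 fell, with a median of 0.73, and 4 were called with either control left out. In 24 of the 29 both siRNA libraries lay above both controls, against 32% of all genes. SQSTM1, the autophagy receptor p62, stood at 285, 281, 829.7 and 2235 CPM (2.28 ± 0.22, adjusted p = 0.00708). PSAP, the precursor of the saposins, stood at 342, 354, 1019 and 1193 CPM (1.67 ± 0.18, adjusted p = 0.00821). GABARAPL1, an ATG8 protein of the autophagosome, stood at 14.4, 13.9, 46.7 and 108 CPM (2.36 ± 0.30, adjusted p = 0.0108). SQSTM1 and GABARAPL1 rose further with siRNA 3 than with siRNA 1. In the fit of the 4 libraries alone GABARAPL1 was called and SQSTM1 was not (adjusted p = 0.048 and 0.0601). CTSS, a cathepsin, stood at 4.49, 4.61, 28.3 and 10.9 CPM, and CTSA, CTSB, HEXA, LAMP2 and WIPI1 were the other 5.

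Some p53 targets and CDK inhibitors rose. Of 25 tested, 10 rose (40%) and 1 fell (4%), with a median of 0.59. Leaving out control A left 2 of the rises called and leaving out control B left 0. In the fit of the 4 libraries alone 7 of the 25 were called higher and 1 lower. CDKN1A, which encodes p21, stood at 129.9, 117, 267 and 343 CPM (1.30 ± 0.12, adjusted p = 0.00704). GDF15, a stress cytokine, stood at 4.72, 3.38, 18.5 and 37.6 CPM (2.75 ± 0.41, adjusted p = 0.0137), and BTG2, an antiproliferative factor, at 15.5, 14.3, 65.6 and 39.3 CPM (1.79 ± 0.27). CDKN1C, which encodes p57, stood at 0.734, 0.515, 4.39 and 2.51 CPM. All 4 were higher than both controls with either reagent. PLK2, a polo-like kinase, was the 1 that fell, at 172, 169, 70.8 and 48.1 CPM (-1.55 ± 0.11).

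Of 10 AP-1 factors 3 rose and 2 fell, shares of 30% and 20% that rest on few genes. Leaving out control A left 2 and 1 of these called, and leaving out control B left 1 and 1. FOS stood at 9.70, 9.91, 30.03 and 39.7 CPM (1.82 ± 0.13, adjusted p = 0.00589), JUNB at 40.2, 37.4, 144 and 119 CPM (1.77 ± 0.24) and ATF3 at 2.06, 2.35, 7.64 and 3.74 CPM (1.28 ± 0.18). FOSL1, the FOS relative FRA1, stood at 9.08, 9.60, 2.05 and 2.59 CPM (-2.01 ± 0.19, adjusted p = 0.00708), and BATF3 stayed under 1 CPM throughout. So FOS and FOSL1, members of 1 family, went in opposite directions with both reagents. Of 29 ERBB ligands and genes downstream of ERK, 5 rose (17.2%) and 1, CCND1, fell (3.45%). The ligand gene HBEGF stood at 59.4, 57.8, 230.5 and 149.6 CPM (1.68 ± 0.23) and EREG, epiregulin, at 39.95, 40.4, 97.2 and 98.7 CPM (1.32 ± 0.31). EGF, EGR1 and EGR3 were the other 3, and of the 5 that rose, leaving out control A left 1 called and leaving out control B left 0.

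Of 38 interferon response genes 10 rose (26.3%) and 1 fell (2.63%), and 1 of the rises was called with control A left out and 2 with control B left out. With the 4 libraries alone 8 of the 38 were called higher and 0 lower. IFI44L stood at 3.22, 3.28, 32.7 and 17.6 CPM (2.91 ± 0.28, adjusted p = 0.0072) and IFIT2, which binds foreign RNA, at 7.44, 8.89, 23 and 22.2 CPM (1.47 ± 0.17). XAF1 was at 0, 0.0132, 0.488 and 0.210 CPM, a level of few reads. USP18, which removes ISG15 and dampens interferon signalling, was the 1 that fell. Of 31 NF-kB, chemokine and cytokine genes 5 rose (16.1%) and 1, IL6, fell (3.23%), and 1 rise was called with either control left out. CXCL8, the neutrophil chemokine IL-8, stood at 95.6, 92.8, 183 and 267 CPM (1.26 ± 0.28). TNFSF10, the death ligand TRAIL, rose to very different levels with the 2 reagents, at 11, 11.6, 304 and 37.1 CPM (3.34 ± 0.55). The cytokine gene IL33 did so too, at 0.311, 0.198, 1.15 and 63.5 CPM. IL6 was at 0.720, 0.542, 0.0976 and 0.0618 CPM, a level of few reads (adjusted p = 0.0494). It was not called in the fit of the 4 libraries alone.

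**Figure D4:**
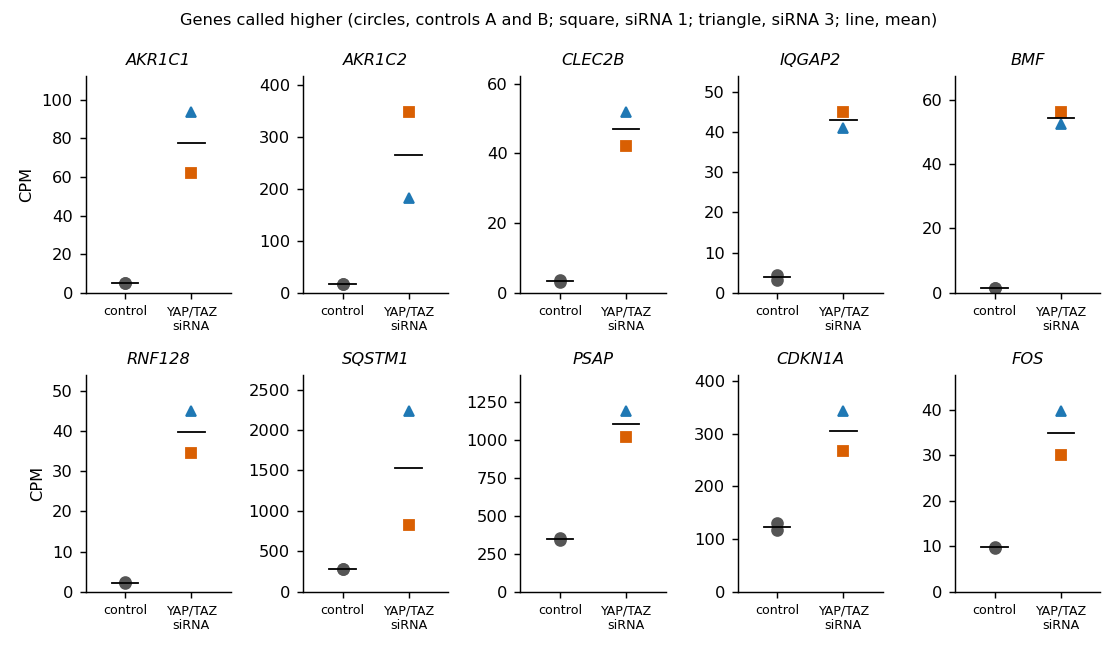
CPM (y axis, from 0, a scale for each gene) of 10 genes that rose; circles are controls A and B, the square siRNA 1, the triangle siRNA 3, and lines group means. Both siRNA values lie above both controls in every gene; BMF is nearly equal with the reagents, and SQSTM1 differs most (830 and 2235 CPM).

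Of 34 extracellular matrix genes 4 fell (11.8%, near the background of 8.92%) and 7 rose (20.6%, against 7.62%), and of these 3 and 6 were called when either control was left out. THBS1, thrombospondin 1, stood at 4831, 4951, 509 and 635 CPM (-3.10 ± 0.17, adjusted p = 0.00541). COL8A1, a short-chain collagen, stood at 121, 121, 27 and 13.3 CPM (-2.67 ± 0.12), and the basement membrane collagen gene COL4A1 at 341, 324, 115 and 108 CPM (-1.56 ± 0.23). COL12A1 fell by 1.62 ± 0.11. Among those that rose, MMP9, a gelatinase, stood at 73, 72.2, 249 and 733 CPM (2.56 ± 0.23, adjusted p = 0.00704), and LOX, which cross-links collagen, at 19.9, 21.7, 63.9 and 111 CPM (2.02 ± 0.12). TNC, tenascin C, stood at 119.7, 121, 269 and 641 CPM (1.79 ± 0.14), and MMP1, a collagenase, at 0.438, 0.449, 8.61 and 93.3 CPM. All 4 rose further with siRNA 3. LOX was called in the fit of the 4 libraries alone, and MMP9, TNC and MMP1 were not. FN1, TIMP1 and SERPINE2 were the other 3 that rose.

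Of 24 integrin and focal adhesion genes 5 rose (20.8%) and 1 fell (4.17%), with 3 rises called without control A or control B. ITGB6, the epithelial partner of integrin alpha V, stood at 431, 439.7, 1091 and 1316 CPM (1.46 ± 0.11, adjusted p = 0.00631), and ITGB8, another partner, at 150.1, 148, 476 and 389 CPM (1.53 ± 0.10). ITGA5, of the fibronectin receptor, stood at 318, 305, 579 and 1365 CPM (1.51 ± 0.10), and ITGB3 and ITGAV rose as well. CAV1, caveolin 1 of the membrane pits, fell with both reagents, at 1171, 1195, 384 and 292 CPM (-1.82 ± 0.11, adjusted p = 0.00541). Of 25 SRF and actin cytoskeleton genes 1 fell and 1 rose (4% each, below the background), and neither was called without control A or control B. These were ACTB, at 5441, 5765, 3550.2 and 3069 CPM, and ACTA2, at 7.23, 7.84, 15.7 and 19.7 CPM. Of 20 mesenchymal genes 6 rose (30%) and 1 fell (5%), and 2 of the rises were called with either control left out. ZEB2, a repressor of epithelial genes, stood at 8.54, 9.64, 18.6 and 33.2 CPM (1.45 ± 0.13), and PDGFRA, also a fibroblast marker, at 0.141, 0.119, 2.64 and 1.96 CPM. CDH11, a mesenchymal cadherin, was the 1 that fell, at 12.5, 11.6, 1.46 and 3.04 CPM.

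Among signalling genes, 4 of 26 of the TGF-beta and BMP list rose (BMP2, BMPR2, SMAD6 and LTBP1) and 1, TGFB2, fell, shares of 15.4% and 3.85%. BMP2 stood at 5.61, 5.23, 15.8 and 51.9 CPM and LTBP1, which anchors latent TGF-beta in matrix, at 117, 122, 321 and 305 CPM. None of the 4 rises was called without control A or control B. Of 29 Notch and Wnt genes 5 rose (JAG1, HEY1, LFNG, WNT4 and TCF7) and 2 fell, shares of 17.2% and 6.9%, and 1 in each direction was called with either control left out. DKK1, a secreted Wnt antagonist, stood at 170.4, 181, 45.6 and 17.7 CPM (-2.62 ± 0.17, adjusted p = 0.00541), and JAG2, a Notch ligand, at 29.1, 29.7, 17.3 and 12.4 CPM. HEY1, a Notch target, stood at 1.57, 1.30, 5.70 and 6.47 CPM (2.09 ± 0.27). WNT4 was at 0.226, 0.0661, 9.31 and 0.358 CPM, so nearly all of its difference was with siRNA 1. TCF7 was scarce in the controls, at 0.113, 0.185, 2.19 and 3.36 CPM.

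Genes of epithelial identity and of squamous differentiation differed between the reagents and supplied few calls. Of 30 cornified envelope genes 2 rose, IVL (involucrin, 4.22, 5.10, 113 and 9.05 CPM) and CNFN (0.452, 0.687, 3.59 and 1.90 CPM), a share (6.67%) below the background. With either control left out IVL was called and CNFN was not. Neither was called in the fit of the 4 libraries alone. The median log2 ratio of this list was 3.11 with siRNA 1 and -0.33 with siRNA 3, and 12 of the 30 were at least 1.5-fold higher with siRNA 1 and as much lower with siRNA 3. TGM1, a transglutaminase that cross-links the envelope, stood at 25, 19.6, 314 and 3.99 CPM, above the controls with 1 reagent and below them with the other. S100A9, a calcium-binding protein of inflamed squamous epithelia, stood at 38.6, 35.8, 1547 and 28.8 CPM. Of 24 luminal and secretory genes 2 fell and 2 rose (8.33% each, near the background), while 11 went in opposite directions, up with siRNA 1; with either control left out 1 fell and 1 rose. EHF, an epithelial ETS factor, stood at 33.5, 32.1, 474 and 11.6 CPM. The 2 that fell were the simple-epithelium keratin genes KRT7 (1699.6, 1652, 723 and 591 CPM, -1.35 ± 0.15) and KRT18 (221, 226, 112 and 123 CPM, -0.92 ± 0.21). CEACAM6 and LTF met the rule for a rise, at 0.297, 0.317, 21.2 and 1.51 and 0, 0, 4.90 and 0.0865 CPM, so nearly all of the difference was with siRNA 1.

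Of 20 basal genes 2 rose, TP63, which maintains basal epithelia (78.6, 79.7, 160.3 and 137 CPM, 0.91 ± 0.20), and KRT6B, a stress keratin (28.5, 28.3, 227 and 73.8 CPM, 2.19 ± 0.28). That share, 10%, is near the background, and neither was called without control A or control B. Basal keratin KRT5, given above, and KRT14 (195, 191, 636 and 80.1 CPM) were higher with siRNA 1 and lower with siRNA 3. Of 27 junction genes 1 rose (3.7%), the desmosomal cadherin DSC2, at 103, 103, 771 and 438 CPM (2.60 ± 0.53, adjusted p = 0.0265, and 0.075 and 0.0787 without control A and B). CDH1, E-cadherin, stood at 445, 442, 1111 and 144 CPM and showed no common direction. Over all genes, 738 of 16117 were 1.5-fold up with siRNA 1 and down with siRNA 3, and 275 the reverse.

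The same siRNAs were used in HER2 cells, whose ratios were taken to their own control. The HER2 libraries also entered the fit of 9 libraries that chose the genes called, so these values are not independent of that choice. Of the 1438 genes that fell in empty-vector cells, 996 (69.3%) lay below the HER2 control with both siRNAs, against 29.9% of all genes. Of the 1228 that rose, 988 (80.5%) lay above it with both, against 35.5% of all genes. The median log2 ratios of the falling genes were -1.20 and -1.43 with siRNA 1 and siRNA 3 in empty-vector cells and -0.29 and -0.99 in HER2 cells. Those of the rising genes were 1.28 and 1.39, and 0.72 and 1.16. For the genes called in the fit of the 4 empty-vector libraries alone, which held no HER2 library, 691 of 986 (70.1%) lay below the HER2 control with both siRNAs and 500 of 627 (79.7%) above it. That choice of genes was added after seeing the data. For HER2 siRNA libraries against the HER2 control, within the same fit of 9 libraries, 2.04% of genes passed the test as lower and 2.2% as higher. With 1 HER2 control library, the HER2 values have no spread of their own for that group.

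CTGF, CYR61 and YAP1 were lower with both siRNAs in HER2 cells as well. In HER2 cells, in the order control, siRNA 1, siRNA 3, CTGF stood at 21.9, 4.46 and 9.64 CPM, CYR61 at 77.7, 12.7 and 21.6 CPM and YAP1 at 115, 9.75 and 18.9 CPM. ANKRD1 was scarce in the HER2 control already, at 0.350, 0.0757 and 0.954 CPM. AMOTL2 (37.4, 10.4 and 13.3 CPM), CRIM1 (256, 108 and 43.9 CPM) and the scarce TGFB2 (2.10, 1.18 and 1.52 CPM) were lower with both siRNAs. F3, at 249, 210 and 138 CPM, was only slightly lower with siRNA 1. FJX1, at 28.3, 29.4 and 9.44 CPM, was lower with siRNA 3 only. The medians of the cell cycle lists were lower with siRNA 3 than with siRNA 1 in HER2 cells. Their median log2 ratios were -0.25 and -1.51 for replication, -0.60 and -2.13 for mitosis, and 0.20 and -1.37 for histones. HIST1H3B stood at 145, 166 and 55.3 CPM, above its control with siRNA 1, and MCM10 at 135, 112 and 34 CPM. AKR1C1 was high with both siRNAs, at 13.9, 172 and 255 CPM, and BMF at 0.131, 0.954 and 5.50 CPM was far below its level in empty-vector cells with siRNA.

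The difference between lines was tested as an interaction, and 0 of 16117 genes passed in edgeR, with a smallest adjusted p of 0.232. At an unadjusted p under 0.05 there were 2415 genes (15% of all), and DESeq2 called 630. Among the lists, 23 of 24 histones, 33 of 40 mitosis and 23 of 40 replication genes had an unadjusted p under 0.05, with median interaction log2 values of -2.11, -1.69 and -1.61. Negative values mean a larger fall in empty-vector cells. Some histones were lower already in the 1 HER2 control library than in the mean of controls A and B. HIST1H3G was at 51.6 against 192 CPM and HIST1H3B at 145 against 221 CPM, while HIST1H1B was closer, at 454 against 491 CPM. The part of this in the interaction was not tested. For CTGF the interaction was -1.18 ± 0.24 and for LMNB1 -1.84 ± 0.36. For no single gene did edgeR call a difference between the lines, which does not show that the lines responded alike.

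**Figure D5:**
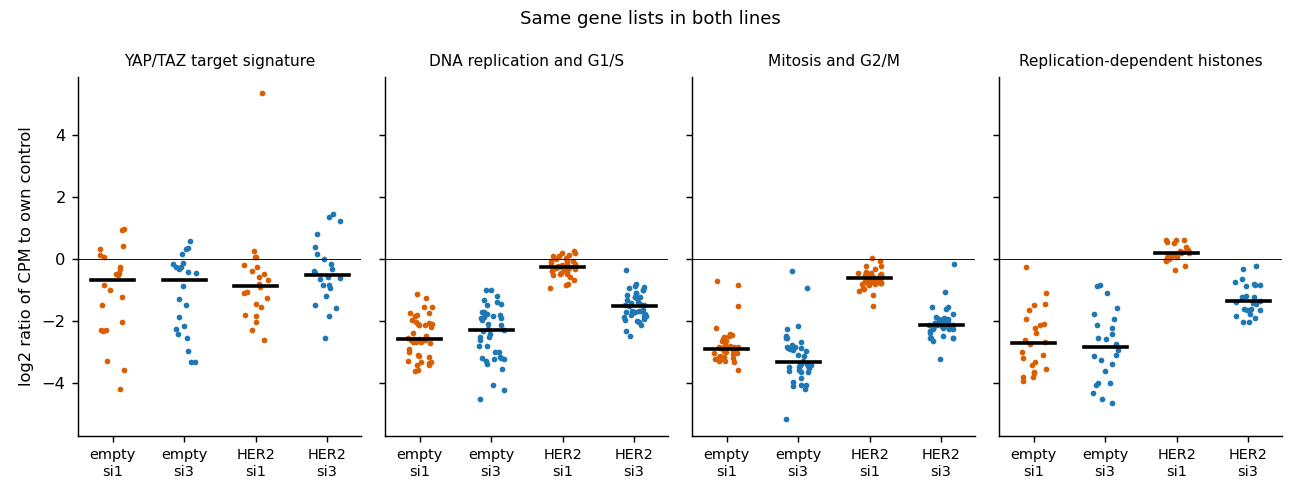
Log2 ratio of CPM to the control of the same line (y axis) for members of 4 gene lists (points) with siRNA 1 and siRNA 3 in empty-vector and HER2 cells; black bars are medians. Cell cycle lists are low with both siRNAs in empty-vector cells, while in HER2 cells the siRNA 1 medians lie between -0.60 and 0.20.

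For empty-vector cells on the hydrogel, with control siRNA, any comparison with plastic would share controls A and B, so the values are only set side by side. CTGF was at 7.76 CPM there, CYR61 at 33.2 CPM and ANKRD1 at 0.903 CPM, while YAP1 was at 81.6 CPM. MCM10 was at 10.4 CPM and HIST1H3G at 9.63 CPM. BMF was at 46.9 CPM and FBXO32 at 313 CPM, close to their levels with siRNA on plastic, whereas MMP9 was at 6.30 CPM. IQGAP2 was at 5.42 CPM, near its control level on plastic.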

How the data were processed

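RNA was measured in 9 samples. Per the labels, total RNA was depleted of ribosomal RNA and made into libraries. The deposited table holds raw read counts per gene symbol, not normalized by the authors. The submitters' processing notes name STAR 2.5.3a, featureCounts, edgeR and hg19, with no order or role. Strand, annotation and the counting of multiply mapping reads are not given in the sources used here. The 1 of 25370 entries with no symbol had 0 counts and was left out.

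Genes were kept by filterByExpr (minimum count 10 by group), which left 16117 genes. Libraries were scaled by TMM. The quasi-likelihood F test of edgeR 4.0.16 in R 4.3.3 was fitted to all 9 libraries with 6 groups and 1 term for siRNA 3 against siRNA 1, with 2 residual degrees of freedom, and Benjamini-Hochberg adjustment at 0.05. The siRNA number is the reagent in both lines, and the difference between reagents correlated between lines at r = 0.415 across genes. The standard error is the absolute log2 fold change divided by the root of F. Log2 ratios use CPM with a prior count of 2. The groups with 1 library were assumed to vary like the rest. DESeq2 1.42.0 and other settings served as alternatives. The test was run on simulated counts with the same effect for both siRNAs and the same spread for all genes. It was therefore not checked where the reagents differ.

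Controls A and B differed beyond counting noise, with a chi-square of 11.5 per degree of freedom over 14248 genes. The 2 residual degrees of freedom of the main fit came from controls A and B and from how the reagent difference varied between lines. The p-values rest on that spread and not on replicates of each siRNA. Nothing states that replicates came from separate cultures, so the spread between controls may be technical. Named genes were, in each direction, the first 12 of the called genes ordered by the smaller siRNA ratio, requiring mean log2 CPM of 2 or more and leaving out uncharacterised loci and small RNAs. Also named were all tested YAP, TAZ, TEAD, VGLL and signature genes and up to 4 called members of each other list and direction. Not every gene this rule selects is reported here. Members outside this rule, such as KRT5, KRT14, CDH1, TGM1, S100A9, EHF, MRGBP and EIF4A3, were chosen after their values were seen. The members and the 28 gene lists were chosen with earlier results of these data known. Promoters came from a RefSeq table of GRCh38.p14, since no coordinates are in the deposited table. Python 3.11.15 was used for promoters and plots. 3 counts give the floor of 0.0371 to 0.0586 CPM in the 4 libraries, which covers counting error only.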

Additional observations from a re-analysis of the deposited data

How the results depend on the processing

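The count of genes past the test (4139) and that called with both siRNAs (2666) stayed within 1.5 times under DESeq2 size factors, library totals, no count filter, a CPM filter and the DESeq2 Wald test, at 3985 to 4976 and 2651 to 2955. Without the siRNA term as a replicate block both were 0. With each siRNA as its own group they were 6493 and 3441, and with only the 4 libraries 1615 and 1613. The genes called with both siRNAs numbered 1478 at 2-fold and 4033 with no fold requirement. Leaving out 1 library at a time gave 525 to 10600 past the test and 510 to 5415 called. The low ends are without a control. The high end past the test is without 1 HER2 siRNA library, a fit whose 1 residual degree of freedom came from controls A and B. Where 1 empty-vector siRNA library was left out, only the other siRNA's fold was required and the missing reagent was filled in from HER2 cells. The interaction between lines was 0 in edgeR, 630 with DESeq2, 6629 with each siRNA as its own group, and 0 to 7238 leaving out 1 library. No interaction could be had from the 4 libraries alone. The counts of the 28 lists under the same settings were chosen after seeing the data.

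Of 2097 values of 150 named genes under the alternatives, 1713 kept direction and side of the threshold, 326 lost the call, 41 gained it and 17 changed sign. Only 1 of the 17 was of a called gene, KRT6B. Its log2 fold change ran from -0.30 (without siRNA 3) to 4.70 (without siRNA 1) as libraries were left out. In those fits the missing reagent was filled in from HER2 cells. There KRT6B stood at 0.263, 0.197 and 0 CPM with control siRNA, siRNA 1 and siRNA 3. In empty-vector cells KRT6B lay above both controls with either reagent, at 28.5, 28.3, 227 and 73.8 CPM. The log2 fold change of IGFBP3 was 0.20 without the replicate block, 0.17 with 4 libraries, and -1.03 to 0.48 leaving out 1 library. The log2 fold change of CCDC80 was -0.18 with each siRNA as its own group and -2.15 to 1.78 leaving out 1 library. The log2 fold change of ARHGEF17 was -0.0077 with no count filter and -0.57 to 0.56 leaving out 1 library. Such ranges were -0.61 to 0.37 for the log2 fold change of FOXF2, -2.96 to 4.38 for VGLL1, -0.56 to 0.11 for MYOF and -0.74 to 0.30 for NT5E, with the extremes in the fits without siRNA 1 or siRNA 3. The cause was not tested. Depth does not limit abundant genes, while genes under about 1 CPM rest on few reads.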
